A study of Mus musculus with 6 samples.

Results

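Transcription factors that mark mesodermal origin and the position of a fat depot were followed in epididymal white adipose tissue, the fat pad beside the epididymis, of fasted mice. The set held 10 genes, Tbx18, Tbx15, Nr2f1, Nr2f2, Tcf21, Gata6, Meox1, Meis1, Irx3 and Irx5, taken by symbol from a table of 45777 genes. Tbx18 and Nr2f2 were the starting points. The set was chosen with its values in both labels known, so each difference between the labels given for the 10 genes is a description with no test. The lists of related genes named below were also chosen with earlier results of these data known, so nothing is read from their counts. The labelled groups were 3 libraries from mice with the Adipoq-Cre transgene and floxed Pak4 alleles (Adipoq-Cre; Pak4 flox/flox, labelled KO) and 3 libraries from mice with floxed Pak4 alleles and no Cre named (Pak4 flox/flox, labelled WT). All were on a C57BL/6 background and had been fasted for 24 h. The Adipoq promoter drives Cre in adipocytes, while mesothelial, vascular, stromal and immune cells of the pad do not use it. Age is not given in the labels, and the replicate numbers are not said to be separate mice, so any p measures the spread between these libraries.

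These proteins bind DNA and set up tissue layers in the embryo, and many stay on in the adult cells that descend from those layers. Fat depots differ in them: in mice, Tbx15 is known as a gene of subcutaneous and brown fat, and Nr2f1 and Tcf21 as genes of the perigonadal and other visceral pads, whose outer mesothelial sheet also expresses the Wilms tumour factor gene Wt1. T-box proteins, COUP-type nuclear receptors (Nr2f1 and Nr2f2), a GATA zinc finger protein, a basic helix-loop-helix protein (Tcf21) and 4 homeobox proteins are all in the set.

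Total counts ran from 62854465 to 72005658 per library. Pak4, the targeted gene, had 815, 744 and 675 counts in the libraries labelled KO and 339, 337 and 358 counts in the libraries labelled WT, with a log2 fold change of 0.96 ± 0.14 (SE; edgeR adjusted p 0.0898). The target thus goes against the labels, which exons are floxed is not stated in the labels, and each direction below refers to what a library is labelled. The labels call the cells adipocytes, while whole tissue was excised. All 15 mature adipocyte markers were measured, with a summed 49200 to 57200 CPM (counts per 1000000 counts of a library, scaled by TMM) in the libraries labelled KO and 63200 to 69600 CPM in those labelled WT, and markers of mesothelium, stroma, vessels and macrophages were present too. Of the 15 adipocyte markers, 11 had a log2 fold change below 0 and 4 above 0, the latter including Pparg at 0.61 ± 0.14 (SE). Of 14 markers of epididymal epithelium and sperm, 6 had no count in any library and the sum of all did not exceed 1.18 CPM. The library labelled KO 1 lay between the other libraries of both labels on the first principal component of all genes, at -1.85, against 40.9 and 53.5 for KO 2 and KO 3 and -12.3, -53.5 and -26.7 for WT 1, WT 2 and WT 3.

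The promoters of 4 members are shown because these genes include both starting points, the near relative of Nr2f2, and a gene of visceral preadipocytes. Each run covers 250 bases before to 50 bases after a RefSeq start on GRCm38.p6, the assembly of mm10, and all 4 are read from the minus strand. RefSeq's promoter table held 6 of the 10 genes. Capitals mark matches, on either strand, to 5 motifs: TCACACCT for T-box proteins, AGGTCA for a nuclear receptor binding element, AGATAA for GATA proteins, TGACAG for MEIS proteins and TATAAA for a TATA box.
Tbx18 (chr9:87731211-87731510): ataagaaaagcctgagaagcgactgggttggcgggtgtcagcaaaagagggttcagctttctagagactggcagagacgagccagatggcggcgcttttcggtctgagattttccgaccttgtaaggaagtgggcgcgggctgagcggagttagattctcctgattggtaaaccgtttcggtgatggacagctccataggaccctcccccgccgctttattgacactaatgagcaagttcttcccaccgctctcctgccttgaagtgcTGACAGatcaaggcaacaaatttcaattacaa
Nr2f2 (chr7:70366697-70366996): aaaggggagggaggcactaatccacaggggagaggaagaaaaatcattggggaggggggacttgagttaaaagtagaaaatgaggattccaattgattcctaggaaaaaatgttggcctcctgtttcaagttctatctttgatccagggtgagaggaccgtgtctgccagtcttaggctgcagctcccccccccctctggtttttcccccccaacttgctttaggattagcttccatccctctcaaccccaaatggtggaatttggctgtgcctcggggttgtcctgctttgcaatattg
Nr2f1 (chr13:78198824-78199123): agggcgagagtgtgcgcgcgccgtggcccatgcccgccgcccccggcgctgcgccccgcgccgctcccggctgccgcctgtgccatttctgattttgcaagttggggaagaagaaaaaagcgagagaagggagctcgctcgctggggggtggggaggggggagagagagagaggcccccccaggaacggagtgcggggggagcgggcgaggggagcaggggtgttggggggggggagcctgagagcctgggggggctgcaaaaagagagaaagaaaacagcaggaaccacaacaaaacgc
Tcf21 (chr10:22820094-22820393): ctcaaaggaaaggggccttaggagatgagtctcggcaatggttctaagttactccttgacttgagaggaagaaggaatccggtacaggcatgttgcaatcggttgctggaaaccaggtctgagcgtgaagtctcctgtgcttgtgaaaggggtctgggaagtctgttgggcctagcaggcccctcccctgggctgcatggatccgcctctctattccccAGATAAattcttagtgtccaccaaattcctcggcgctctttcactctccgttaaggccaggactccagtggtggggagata

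The Tbx18 run held 1 match, the MEIS letters 19 bases into the transcript, and the Tcf21 run held 1, the GATA letters 31 bases ahead of its start, at position -31. The Nr2f2 and Nr2f1 runs shown held none, nor did those of Meis1 and Irx3. Over all 32851 promoters of the table, the MEIS letters occurred in 19.2%, the GATA letters in 11.2%, the receptor element in 16.3%, the TATA letters in 13.6% and the T-box letters in 1.28%, so a match is a description of the letters and no sign of a site. The runs shown for the paralogues Nr2f2 and Nr2f1 differed in base composition. The Nr2f2 run was 49.7% G or C with 2 CpG pairs, while the Nr2f1 run shown was 68.0% with 23 CpG pairs. The medians over all promoters were 52.7% and 7 CpG pairs. RefSeq also held another Nr2f1 run, not shown (chr13:78196400-78196699), at 43% G or C with 4 CpG pairs and no match. The difference between the paralogues thus depends on the Nr2f1 start chosen.

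By per-length level, Gata6 was the most abundant of the 10 and Irx5 the least. On the authors' deposited TPM, averaged over the 6 libraries, the order was Gata6 (14.1 ± 3.13 TPM), Meis1 (9.98 ± 2.25), Nr2f2 (8.11 ± 2.82), Tcf21 (7.58 ± 2.38), Nr2f1 (3.85 ± 1.00), Meox1 (3.73 ± 1.74), Tbx18 (2.27 ± 1.09), Irx3 (1.63 ± 0.214) and Tbx15 (0.116 ± 0.0863; SD, n = 6 each), with Irx5 listed above 0 in WT 1 alone, at 0.0249 TPM. Gata6 stood above 64.1% of the genes tested and Tbx15 above 3.50%. No pair of neighbours in this order differed past the threshold of 0.05 after adjustment over the 9 pairs. Gata6 over Meis1, Meis1 over Nr2f2, Tcf21 over Nr2f1 and Irx3 over Tbx15 held in 6 of 6 libraries, each with p = 0.0312 in an exact two-sided paired permutation test, the smallest p that 6 libraries allow, and an adjusted p of 0.0703. For example, the mean log2 difference of Gata6 over Meis1 was 0.50 ± 0.08 (SD). Nr2f2 was above Tcf21 in 4 of 6 libraries, so those neighbours were not separable from the spread between libraries. Nr2f1 was above Meox1 in 3 of 6 and Tbx18 above Irx3 in 3 of 6, in both cases the libraries labelled KO. The order of these neighbours thus differed by label, which the test over all 6 libraries does not take into account.

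**Figure D1:**
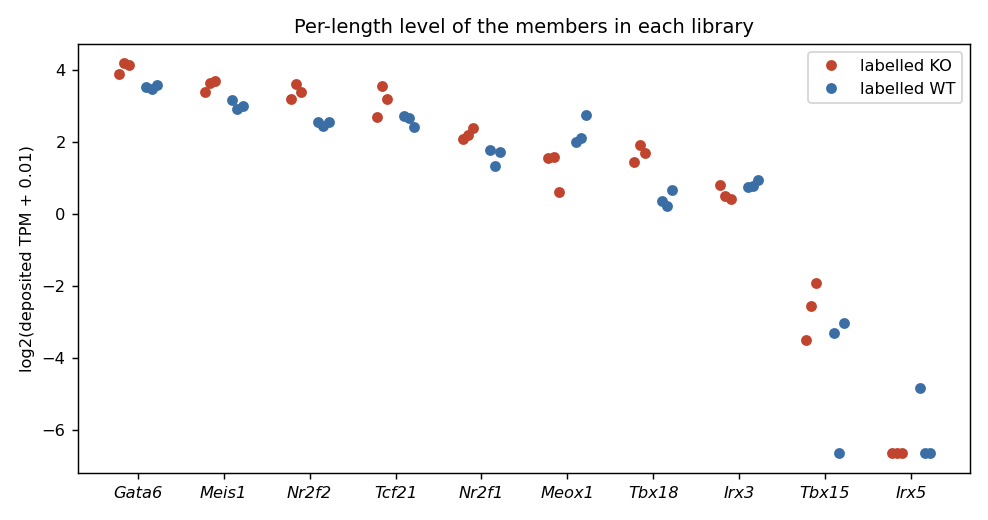
Deposited TPM of the 10 genes on a log2 scale with 0.01 added (vertical axis), 1 point per library, with libraries labelled KO left of those labelled WT for each gene. The 8 genes from Gata6 to Irx3 lie between 1.15 and 18.0 TPM, and Tbx15 and Irx5 lie below, at no more than 0.257 TPM, with points at the bottom for libraries listed at 0.

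Between the labels, 7 of the 9 members that passed the filter on low counts were above 0 in log2 fold change (52.1% of all genes tested were) and 2 were below 0. The median log2 fold change (libraries labelled KO over libraries labelled WT) of these 9 was 0.51, beside 0.015 over all 17820 genes tested. Tbx18, Nr2f2, Nr2f1, Gata6 and Meis1 were higher in all 3 libraries labelled KO than in any labelled WT, and Meox1 was lower in all 3. Over all genes tested, 26.2% had groups that did not overlap, 13.7% higher and 12.5% lower, and since the set was chosen from this contrast nothing is read from its count. With edgeR's quasi-likelihood test, 0 of the 9 passed an adjusted p of 0.05 and 3 of all 17820 genes did (0.0168%). In bulk tissue, fewer cells of a type and less RNA per cell cannot be told apart.

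**Figure D2:**
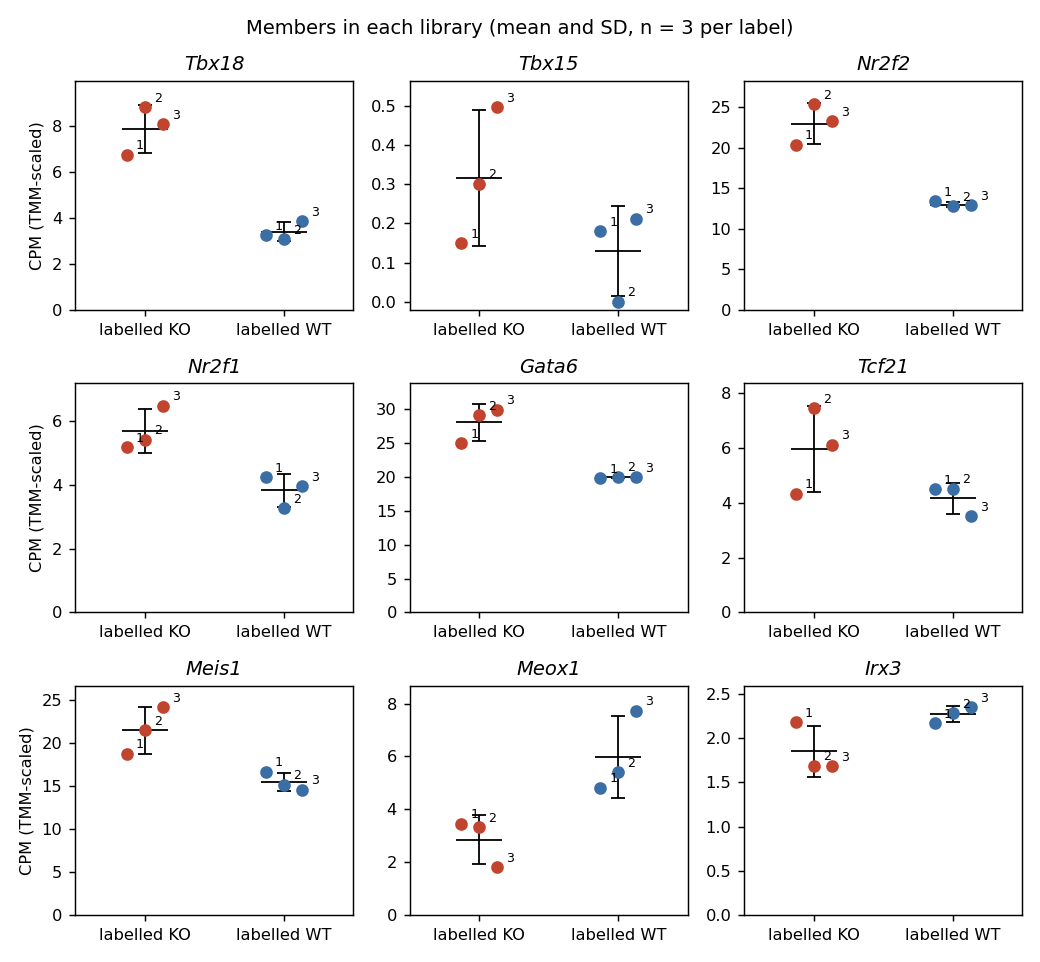
TMM-scaled CPM (vertical axis, from 0, own range per gene) of the 9 members that passed the filter, with 1 numbered point per library, libraries labelled KO left of those labelled WT, and a bar for the mean with its SD (n = 3). Tbx18, Nr2f2, Nr2f1, Gata6 and Meis1 have all 3 points labelled KO above the 3 labelled WT, Meox1 has them below, and Tbx15, Tcf21 and Irx3 overlap.

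Tbx18 encodes a T-box protein needed for the epicardium, the sinus node and the smooth muscle of the ureter, and in adult mouse organs, fat among them, it marks pericytes and vascular smooth muscle. It lies on the minus strand of chromosome 9 at 87702800 to 87731260 (gene 76365). Tbx18 had 6.75, 8.83 and 8.08 CPM in the libraries labelled KO 1, 2 and 3 and 3.26, 3.07 and 3.86 CPM in those labelled WT 1, 2 and 3. The groups did not overlap, and KO 1 was the lowest of its label. The means were 7.88 ± 1.05 CPM and 3.40 ± 0.41 CPM in the libraries labelled KO and WT, with a log2 fold change of 1.21 ± 0.16 (SE). Of 13 markers of smooth muscle and pericytes, 11 had a log2 fold change below 0, while Tagln and Myh11 stood at 0.36 and 0.23. Their summed level was 699 to 1200 CPM in the libraries labelled KO and 949 to 2330 CPM in those labelled WT, of which Acta2 alone made up 302 CPM in KO 1 and 1390 CPM in WT 2. Sums without Acta2 overlapped, at 900, 653 and 652 CPM in the libraries labelled KO and 810, 939 and 919 CPM in those labelled WT. Mcam made up most of them, at 667, 431 and 423 CPM labelled KO and 562, 618 and 604 CPM labelled WT. Rgs5, Cspg4, Notch3 and Des were lower in all libraries labelled KO than in any labelled WT. These were 4 of the 13, and 0 were higher in all, beside 12.5% and 13.7% of all genes tested. The part of these cells in the level of Tbx18 was not tested.

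Tbx15, the closest relative of Tbx18 in the set, patterns the skeleton and the skin of the trunk and is known as a marker of subcutaneous rather than perigonadal fat in mice. Tbx15 (chromosome 3, 99240348 to 99354260, plus strand, gene 21384) had 10, 21 and 37 counts in the libraries labelled KO and 11, 0 and 13 counts in those labelled WT. The groups overlapped. The count of 0 in WT 2 allows up to 0.0417 unscaled CPM, taken as 3 counts of that library, a limit that covers counting error only. At this depth its log2 fold change of 1.29 ± 0.90 (SE) had an error too wide to read a direction. Of the 15 other T-box genes, 7 passed the filter and 0 passed edgeR's test. Their levels ran widely, with Mga at 42.3 CPM in the libraries labelled KO and 44.9 CPM in those labelled WT on average. Tbx2, a repressor of the same family, had 1.07 ± 0.14 CPM in the libraries labelled KO and 1.56 ± 0.23 CPM in those labelled WT, and Tbx4, a hindlimb gene, had 2.05 ± 0.62 and 1.17 ± 0.53 CPM (SD, n = 3 each). Eomes and Mga, the next of the family by p, had log2 fold changes of -0.75 ± 0.52 and -0.09 ± 0.12 (SE).

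Nr2f2 encodes COUP-TFII, an orphan nuclear receptor known for setting venous identity in endothelium, for lymphatic development, and for its presence in mesenchymal cells. Nr2f2 (chromosome 7, 70351946 to 70366746, minus strand, gene 11819) had 20.4, 25.4 and 23.3 CPM in the libraries labelled KO 1, 2 and 3 and 13.4, 12.8 and 12.9 CPM in those labelled WT 1, 2 and 3. The 3 libraries labelled WT lay close together, with a coefficient of variation of 2.25%, against 10.9% in those labelled KO. At 819, 860 and 791 counts, counting error alone would spread the WT values more widely, so nothing is read from their closeness. The log2 fold change was 0.82 ± 0.11 (SE), with means of 23.0 ± 2.51 and 13 ± 0.29 CPM in the libraries labelled KO and WT (SD, n = 3 each).

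Nr2f1 encodes COUP-TFI, a regulator of neural crest and cortex that is also known as a gene of perigonadal fat in mice. Nr2f1 (chromosome 13, 78188971 to 78198873, minus strand, gene 13865) had 5.17, 5.41 and 6.48 CPM in the libraries labelled KO and 4.24, 3.27 and 3.96 CPM in those labelled WT. The groups did not overlap, though KO 1 and WT 1 were close. Its log2 fold change was 0.57 ± 0.16 (SE). The ratio of Nr2f2 to Nr2f1 in deposited TPM was 2.2, 2.64 and 1.98 in the libraries labelled KO and 1.73, 2.16 and 1.79 in those labelled WT, so these ratios overlapped between the labels. Their transcripts share few exact stretches, with 10 of 5090 distinct runs of 50 bases in Nr2f1 also found in Nr2f2.

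Venous and arterial genes, the endothelial context of COUP-TFII, did not pass edgeR's test. Of 6 venous genes and 14 arterial genes tested, 0 passed, while DESeq2, and edgeR without KO 1, called Flrt2 higher and Lrg1 and Notch4 lower. Among venous genes, Flrt2, an adhesion protein, had 105 ± 17.2 CPM in the libraries labelled KO and 67.1 ± 6.73 CPM in those labelled WT, and Lrg1, a secreted glycoprotein, had 179 ± 46.4 and 306 ± 19 CPM. Vwf, the von Willebrand factor gene, and Selp, the P-selectin gene, had log2 fold changes of -0.44 ± 0.16 and 0.87 ± 0.33 (SE). Selp is also on the list of large peritoneal macrophage markers used below. The 6 venous genes tested were split, 3 above and 3 below 0, with a median of -0.02. Among arterial genes, 10 of 14 lay below 0 and 4 above, with a median of -0.21. Over all genes tested, 52.1% lay above 0. Notch4 had 4.81 ± 0.48 and 9.20 ± 1.34 CPM in the libraries labelled KO and WT, and the Notch ligand gene Dll4 had 0.94 ± 0.23 and 1.79 ± 0.45 CPM. Sox17 and Nrp1 stood at -0.40 ± 0.18 and -0.30 ± 0.14. The summed level of 13 endothelial markers was also lower in the libraries labelled KO, at 304 to 329 CPM against 352 to 441 CPM in those labelled WT, with 11 of 13 below 0, and its part in these values was not tested.

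Gata6 encodes a zinc finger protein of the heart, the endoderm and the mesothelium, and in mice it is the defining factor of large peritoneal macrophages. Gata6 (chromosome 18, 11052510 to 11085636, plus strand, gene 14465) had 24.9, 29.1 and 29.9 CPM in the libraries labelled KO 1, 2 and 3 and 19.8, 20 and 19.9 CPM in those labelled WT 1, 2 and 3. The libraries labelled WT were nearly equal, with a coefficient of variation of 0.527%, while the median over all genes tested was 12.1% in that label. At their 1213, 1341 and 1221 counts, counting error alone would give a wider spread, so nothing is read from this closeness. The log2 fold change was 0.49 ± 0.10 (SE). Among the 7 other GATA and FOG genes, 0 passed the test in edgeR. At an unadjusted p under 0.05, 4 were higher and 0 lower, beside 9.66% and 9.71% of all genes tested. Gata5 had 6.30 ± 2.02 CPM in the libraries labelled KO and 3.71 ± 0.84 CPM in those labelled WT, the T cell factor gene Gata3 had 0.81 ± 0.06 and 0.42 ± 0.05 CPM, and Zfpm2, whose protein is a partner of GATA factors, had 11.5 ± 1.44 and 8.43 ± 1.27 CPM. Gata4 had 0.91 ± 0.57 and 0.30 ± 0.21 CPM, and its groups overlapped.

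Markers of 2 cell types that use Gata6 were measured beside it. The sum of 15 mesothelial markers was 1160, 1310 and 1430 CPM in the libraries labelled KO 1, 2 and 3 and 1180, 734 and 946 CPM in those labelled WT 1, 2 and 3, with 14 of 15 log2 fold changes above 0. The sum of 8 markers of large peritoneal macrophages was 93.6, 114 and 188 CPM in the libraries labelled KO and 110, 72.0 and 73.3 CPM in those labelled WT, with 6 of 8 above 0. In both sums WT 1 lay above KO 1, so the groups overlapped. The part of these cells in the differences between labels was not tested. No marker of either list was at 0 in all libraries. Prg4 was the largest part of the large peritoneal macrophage sums, at 33.6, 42.5 and 82.7 CPM in the libraries labelled KO. In those labelled WT it stood at 46.3, 24.7 and 28.4 CPM. Icam2 and Garnl3 were the markers of that list below 0, at -0.27 ± 0.17 and -0.07 ± 0.14 (SE).

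**Figure D3:**
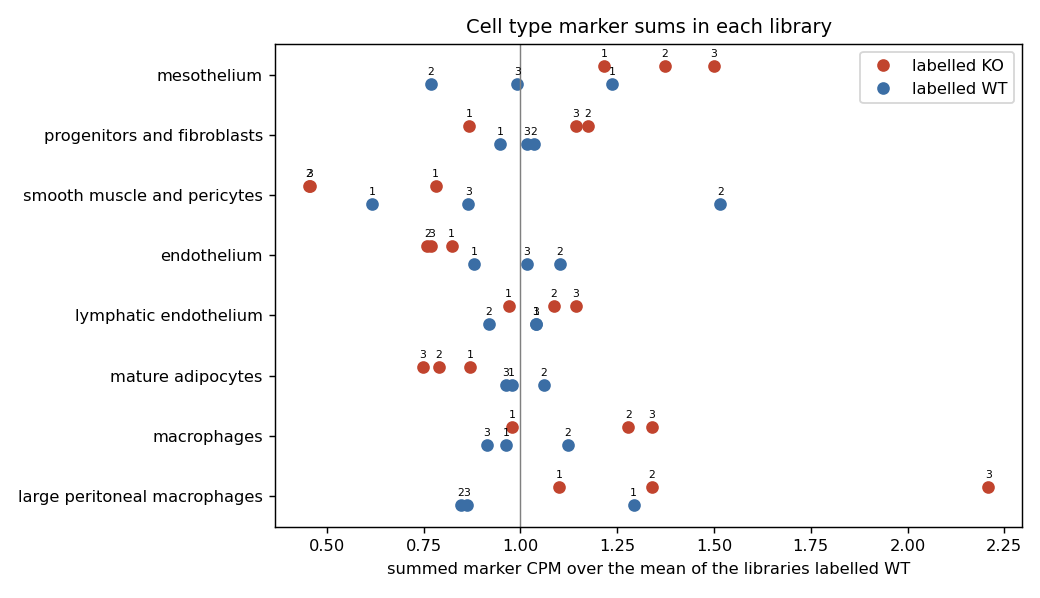
Summed CPM of 8 cell type marker lists in each library, divided by the mean of the libraries labelled WT (horizontal axis), with libraries labelled KO drawn above those labelled WT and numbered. Mature adipocyte and endothelial sums do not overlap and are lower in the libraries labelled KO, while mesothelial sums, 1160 to 1430 CPM against 734 to 1180 CPM, overlap through KO 1 and WT 1.

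Tcf21 encodes a helix-loop-helix protein of epicardium, kidney and lung mesenchyme that is known as a marker of visceral preadipocytes. Tcf21 (chromosome 10, 22817263 to 22820143, minus strand, gene 21412) had 4.33, 7.45 and 6.11 CPM in the libraries labelled KO 1, 2 and 3 and 4.49, 4.51 and 3.52 CPM in those labelled WT 1, 2 and 3. KO 1 lay below WT 1 and WT 2, so the groups overlapped. The log2 fold change was 0.51 ± 0.22 with all libraries, and with 1 library left out it ran over 0.32 ± 0.22 without KO 2 to 0.70 ± 0.18 without KO 1 (SE). The 16 markers of progenitors and fibroblasts were split, 8 above and 8 below 0, with sums of 4920 to 6660 CPM in the libraries labelled KO and 5380 to 5870 CPM in those labelled WT, KO 1 again being the lowest. Dcn alone made up 1690, 2640 and 2880 CPM of the sums labelled KO, and 1600, 1370 and 1470 CPM of those labelled WT. Col3a1, also a large part, made up 1440, 1750 and 1690 CPM and 1550, 1800 and 1970 CPM. Of the other mesodermal helix-loop-helix genes, 6 of 9 passed the filter and 0 passed edgeR's test, while DESeq2 called Twist1 higher. Twist1, a factor of cranial and limb mesenchyme, had 14.4 ± 1.39 CPM in the libraries labelled KO and 10.7 ± 0.55 CPM in those labelled WT, and Hand2, of heart and limb, had 1.57 ± 0.12 and 0.91 ± 0.27 CPM. Twist2 and Tcf15 had log2 fold changes of 0.42 ± 0.23 and -0.31 ± 0.23 (SE).

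Meis1 encodes a homeobox partner of HOX and PBX proteins. Meis1 (chromosome 11, 18880428 to 19019651, minus strand, gene 17268) had 18.8, 21.5 and 24.2 CPM in the libraries labelled KO and 16.7, 15.2 and 14.6 CPM in those labelled WT. The groups did not overlap, with KO 1 and WT 1 nearest to each other. The log2 fold change was 0.47 ± 0.12 (SE). Its paralogue Meis2 had 20.4 ± 2.87 CPM in the libraries labelled KO and 13.7 ± 0.77 CPM in those labelled WT (0.58 ± 0.12, edgeR adjusted p 0.133). None of the 11 other MEOX, MEIS and PBX genes passed edgeR's test, while DESeq2, and edgeR without KO 1, called Meis2 higher. With all libraries, edgeR had 1 higher and 1 lower at an unadjusted p under 0.05, beside 9.66% and 9.71% of all genes tested. Tgif2 and Tgif1, repressors of the same homeobox class, stood at 0.45 ± 0.23 and 0.35 ± 0.18.

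Meox1 encodes a homeobox protein of the somites, the segments that give rise to trunk muscle and vertebrae, and it was the one member lower in every library labelled KO. Meox1 (chromosome 11, 101877510 to 101894354, minus strand, gene 17285) had 3.45, 3.31 and 1.80 CPM in the libraries labelled KO 1, 2 and 3 and 4.82, 5.40 and 7.73 CPM in those labelled WT 1, 2 and 3. KO 3 was the lowest and WT 3 the highest. The log2 fold change was -1.07 ± 0.29 (SE), with coefficients of variation of 32.1% and 25.8% in the libraries labelled KO and WT. Meox2, a paralogue active in limb muscle and vascular endothelium, lay on the same side at 6.67 ± 1.22 and 9.81 ± 1.80 CPM (-0.56 ± 0.19, edgeR adjusted p 0.192), and its groups overlapped. As stated above, endothelial and adipocyte marker sums were lower in the libraries labelled KO too, though 4 of the 15 adipocyte markers were above 0. The part of these cells in the levels of Meox1 and Meox2 was not tested.

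Irx3 and Irx5 are neighbouring homeobox genes of the Iroquois family that have been linked to body mass through the adjoining Fto gene. Irx3 (chromosome 8, 91798511 to 91801654, minus strand, gene 16373) had 2.18, 1.69 and 1.68 CPM in the libraries labelled KO 1, 2 and 3 and 2.17, 2.28 and 2.35 CPM in those labelled WT 1, 2 and 3. KO 1 lay among the libraries labelled WT, so the groups overlapped, and the log2 fold change was -0.29 ± 0.19 (SE). Irx5 (chromosome 8, 92357796 to 92361456, plus strand, gene 54352) had no count in the 3 libraries labelled KO and 3, 0 and 0 counts in those labelled WT 1, 2 and 3, and did not pass the filter. A count of 0 allows up to 0.0449, 0.0460 and 0.0424 unscaled CPM in KO 1, 2 and 3, so no difference was detectable at this depth. Of the other 5 Iroquois genes, Irx2 alone passed the filter, at 0.38 ± 0.04 and 0.18 ± 0.16 CPM in the libraries labelled KO and WT, and did not pass the test.

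**Figure D4:**
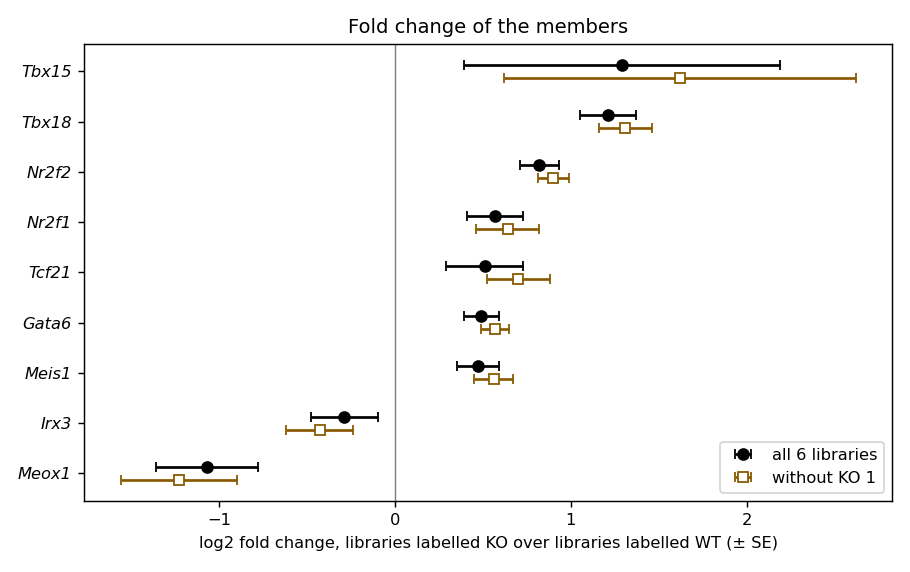
Log2 fold change of the 9 members, libraries labelled KO over libraries labelled WT (horizontal axis, ± SE), from all 6 libraries (filled circles) and without the library labelled KO 1 (open squares). Signs were the same in both fits, and values without KO 1 lay farther from 0 for all 9 genes, for example 1.31 for Tbx18 and 0.90 for Nr2f2.

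Values without KO 1 were farther from 0 for each of the 9 members. They were 1.31 ± 0.15 for Tbx18, 0.90 ± 0.09 for Nr2f2, 0.64 ± 0.18 for Nr2f1, 0.57 ± 0.08 for Gata6, 0.56 ± 0.11 for Meis1, -1.23 ± 0.33 for Meox1 and -0.43 ± 0.19 for Irx3 (log2 fold change ± SE). KO 1 is the library labelled KO that lay nearest those labelled WT over all genes, so nothing is read from larger values without it. Over all 12 alternatives, Tbx18 ran over 1.12 to 1.33, Nr2f2 over 0.74 to 0.94, Gata6 over 0.44 to 0.61 and Meis1 over 0.38 to 0.59. Across the 6 libraries, the closest pair of members was Gata6 and Meis1, whose log2 CPM profiles, each centred on its own mean, differed by a root mean square of 0.07. Nr2f2 and Tbx18 differed by 0.22, and Meox1 and Tbx15, the farthest pair, by 1.73.

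Among 12778 other genes with a mean of at least 1 CPM, those whose profiles lay nearest to Tbx18 were Pik3ip1 (root mean square difference 0.18), Aldh1b1 (0.19), Rab36 (0.20), Klhl3 (0.20) and Styk1 (0.20), where the median gene lay at 0.63. Nearest to Nr2f2 were Zbtb12 (0.06), Fst (0.07), Cand2 (0.07), Styk1 (0.09) and Msr1 (0.09), where the median gene lay at 0.44. Styk1, a receptor-like kinase gene, was on both lists, with 2.96, 4.1 and 4 CPM in the libraries labelled KO and 2.09, 1.88 and 2.14 CPM in those labelled WT. Fst encodes follistatin, which binds activins, and Msr1 encodes a macrophage scavenger receptor. Msr1 is one of 12 macrophage markers, all 12 above 0, whose sums were 1950 to 2670 CPM in the libraries labelled KO and 1820 to 2240 CPM in those labelled WT, and their part in this nearness was not tested. Distances were taken over 6 libraries that share the label difference, which is part of every distance.

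Of 29 other transcription factors of mesoderm and fat depots, 22 passed the filter and 0 passed edgeR's test, while DESeq2, and edgeR without KO 1, called Isl1, Osr1 and Wt1 higher. Of the 22, 18 were above 0, beside 52.1% of all genes tested, and the median lay at 0.24 (log2). This list was chosen with earlier results of these data known, so nothing is read from that share. Isl1, a LIM homeobox gene of heart and motor neuron progenitors, had 6.48, 7.59 and 12.6 CPM in the libraries labelled KO and 2.76, 1.03 and 2.48 CPM in those labelled WT (log2 fold change 2.09 ± 0.41, edgeR adjusted p 0.125). Osr1, a zinc finger gene of intermediate mesoderm, had 59.6, 82.4 and 111 CPM in the libraries labelled KO and 50.3, 26.9 and 32.3 CPM in those labelled WT (1.21 ± 0.30, edgeR adjusted p 0.154). Wt1, the mesothelial and gonadal factor, had 28.5, 43.3 and 53.5 CPM in the libraries labelled KO and 24.4, 13.1 and 19.3 CPM in those labelled WT (1.14 ± 0.29). In all 3 the groups did not overlap and KO 1 was the lowest of its label. Prrx1, a homeobox gene of limb and stromal mesenchyme, stood at 0.41 ± 0.11. Wt1 is also one of the 15 mesothelial markers.

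Over all 106 related genes that are not members, 79 were tested and 0 passed edgeR's test, with 18 higher and 6 lower at an unadjusted p under 0.05, where 9.66% of all genes were higher and 9.71% lower. DESeq2 called 6 higher and 2 lower among the 71 it gave an adjusted p, and 6.62% of all its genes. Limma voom called 0, and edgeR without KO 1 called 5 higher and 2 lower of 81, and 5.57% of all genes. Those called by both DESeq2 and edgeR without KO 1 were Flrt2, Isl1, Lrg1, Meis2, Notch4, Osr1 and Wt1. Groups did not overlap for 19 higher and 7 lower of the 79, with 13.7% and 12.5% of all genes as background. The median log2 fold change of the 79 was 0.10. These lists were chosen with earlier results of these data known, so nothing is read from the counts. Among 10 other genes of the NR2 and RXR group, 6 were tested. Rxrg, a retinoid X receptor gene, had 14.6 ± 2.09 CPM in the libraries labelled KO and 11.1 ± 1.34 CPM in those labelled WT, Nr2c2 stood at 0.23 ± 0.13, Rxra at -0.24 ± 0.19 and Nr2c1 at 0.03 ± 0.10.

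Non-coding genes overlap several members. In RefSeq, 32 genes of the table overlapped a member or started within 100 kb of its start. Of these, 7 overlapped a member, all 7 non-coding and on the opposite strand, and 4 of the 7 passed the filter. B130024G19Rik, at Nr2f2 (chromosome 7, 70365383 to 70411146), had 50, 66 and 95 counts in the libraries labelled KO and 28, 20 and 20 counts in those labelled WT (log2 fold change 1.45 ± 0.33, edgeR adjusted p 0.139). 1010001N08Rik, which RefSeq calls Gata6os, had 158, 224 and 242 counts in the libraries labelled KO and 133, 118 and 135 counts in those labelled WT (0.52 ± 0.20). A830082K12Rik at Nr2f1 had 69, 105 and 98 counts in the libraries labelled KO and 51, 63 and 48 counts in those labelled WT (0.59 ± 0.24). In these 3 genes the groups did not overlap, as in the members they cross, while Gm16141 within Meis1 (0.56 ± 0.35) overlapped.

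Reads of such pairs may not be fully separated. The library kit keeps strand, but no source used here says whether the counting did. Against its member, the overlapping gene held 2.27% to 5.20% of the pair's counts at Nr2f2, 8.09% to 9.96% at Gata6, 16.4% to 22.3% at Nr2f1 and 1.64% to 2.92% at Meis1. In GENCODE transcripts, 852 of 4668 distinct 50-base runs of Tbx18 (18.3%) also occurred in other genes on either strand, 836 of them in the opposite-strand gene D030062O11Rik, which was not analysed here. The share was 7.35% for Nr2f2, 17.0% for Meis1, 4.16% for Irx3, 1.30% for Nr2f1, 0.682% for Gata6 and 0 for Tbx15, Tcf21 and Meox1. At Meis1, 981 runs occurred in Gm37818 and 849 in Gm16140, which were not analysed here either. At an unadjusted p under 0.05, 9.66% of all genes tested were higher and 9.71% lower. Of the 32 neighbours, 11 were tested and 0 passed in edgeR, with 3 higher and 1 lower at that unadjusted p. The 1 lower was Dusp3, a phosphatase gene near Meox1, with 162 ± 31.4 CPM in the libraries labelled KO and 221 ± 27.6 CPM in those labelled WT, and 20 of the 32 had under 10 counts in every library. The other neighbours tested were Tbpl1 near Tcf21, a TBP-like gene (0.20 ± 0.11), the pseudogene Gm17794 (-0.56 ± 0.42), Crnde near Irx5 (0.20 ± 0.48), Gm29683 near Nr2f2 (-0.32 ± 0.91), and Gm38604 and 3110006O06Rik near Nr2f1 (0.05 ± 0.66 and -0.97 ± 0.92, log2 fold change ± SE).

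**Figure D5:**
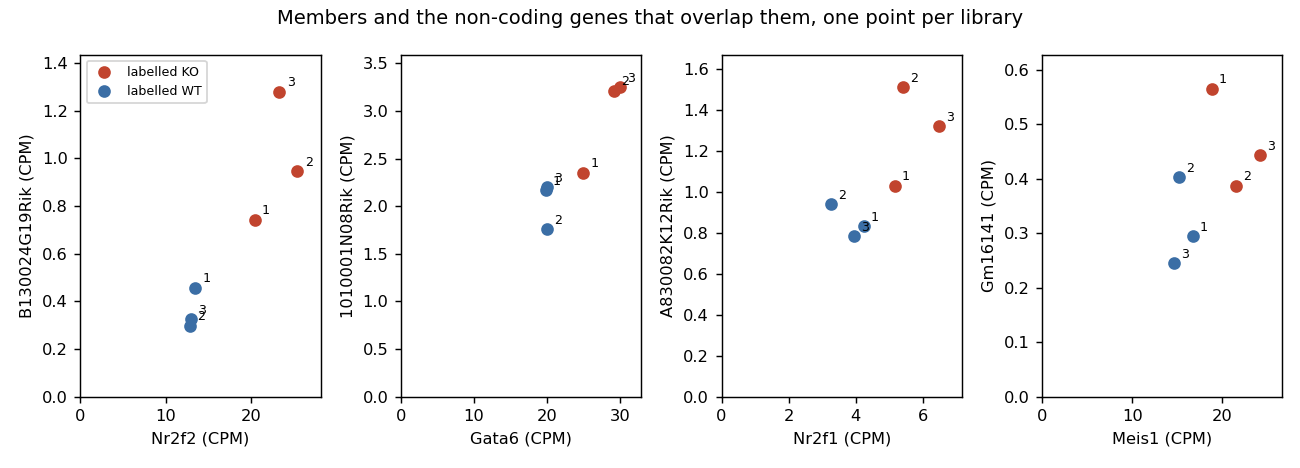
TMM-scaled CPM of Nr2f2, Gata6, Nr2f1 and Meis1 (horizontal axes) against the opposite-strand non-coding gene that overlaps each (vertical axes), 1 numbered point per library, both axes from 0. For the first 3 pairs the libraries labelled KO lie above those labelled WT on both axes, and for Gm16141 the library labelled WT 2, with 27 counts, lies among them.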

How the data were processed

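Messenger RNA of 6 epididymal fat samples was sequenced from stranded libraries, per the labels' protocols. Alignment and assembly tools named in the submitters' processing notes, without their roles, are StringTie 2.1.3b, HISAT2 2.1.0 and Bowtie2 2.3.4.1, and the build is mm10. The authors deposited whole-number read counts per gene, FPKM values and TPM values for each library. The deposited counts entered every fit, the deposited TPM gave per-length levels, and the deposited FPKM served as an alternative.

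Libraries were grouped by title. The filter on low counts was filterByExpr (count of at least 10, total of at least 15). Libraries were scaled by TMM and fitted across all genes with edgeR 4.0.16 (quasi-likelihood, robust, two-sided, Benjamini-Hochberg, threshold 0.05; R 4.3.3), which was tested on simulated data. DESeq2 1.42.0 and limma 3.58.1 voom, other scalings, no filter, a replicate block and leaving out each library were alternatives. Log2 CPM profiles used a prior count of 2. Same-numbered libraries were not taken as pairs, since no correlation of their deviations was over 0.1, though this does not exclude pairing.

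Total counts were 62854465 to 72005658. The members and lists were chosen with earlier results of these data known. Named were the 10 members, up to 4 genes of each related list with the smallest p, the 5 nearest profiles of Tbx18 and Nr2f2, and genes at the members' starts. Coordinates and promoters are RefSeq's on GRCm38.p6, strands GENCODE M21's.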

Additional observations from a re-analysis of the deposited data

How the results depend on the processing

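The log2 fold change of each of the 9 members kept its sign under all 12 alternatives, though for Tbx15 the error was too wide to read a direction. Tbx18 lay between 1.12 and 1.33, Nr2f2 between 0.74 and 0.94, and the median of the 9 between 0.47 and 0.64. Counts of calls did move. DESeq2 called 1036 genes in all, 8 related genes and 5 members, limma voom 5 in all, and edgeR with a replicate block 1 in all, against 3, 0 and 0. With 1 library left out, edgeR called 1 to 1016 genes, 0 to 7 related genes and 0 to 4 members, the high end in each case without KO 1. The cause was not tested, and nothing is read from calls of members, which were chosen on this contrast. Tcf21 was lowest without KO 2, at 0.32. Whether same-numbered libraries are pairs is not known. Their deviations correlated at -0.17, -0.022 and 0.048. Libraries with different numbers ran over -0.189 to 0.185, so these values cannot decide it. The replicate block left 0 related genes and 0 members called. Under library-size scaling the all-gene median was 0.134, against 0.015 with TMM, and Nr2f2 stood at 0.94 and Gata6 at 0.61. In the order of levels, Nr2f2 over Tcf21 ran over -0.01 to 0.14 with 1 library left out, reversed without KO 1, and Nr2f1 over Meox1 over -0.18 to 0.38, reversed without KO 3 (log2 TPM differences), and no neighbours passed under any setting. With 5 libraries the smallest p possible is 0.0625, so no neighbours could pass there and those settings do not bear on the test. The smooth muscle sum without Acta2 and the counts of members called were added after seeing the data. Tbx15 and Irx5 are limited by depth.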
